A study of Malus domestica with 6 samples.

Results

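The 6 transcripts described here had some of the largest folds among genes lower in russeted than in waxy apple skin, in a table of 1261 gene models of Malus domestica. They are a 2-isopropylmalate synthase gene (IMS1, MDP0000123747), a longer and a shorter NmrA-like gene model (MDP0000751143 and MDP0000466251), the RING-H2 finger gene RHA2B (MDP0000612469), the DUF538 gene SVB (MDP0000179031) and an alpha/beta-hydrolase gene matched to the Arabidopsis gene AT3G24420 (MDP0000430391). They were chosen by identifier because their deposited values were much lower in russeted than in waxy exocarp, so that difference is described and not tested. By the authors' deposited fold they ranked 1, 2, 9, 5, 20 and 8 among the 328 listed genes that were lower in russeted exocarp, and all 6 passed the filter on low counts. Names are those of the Arabidopsis match in the table, and positions are not given because no coordinates were used here.

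The exocarp, the outer skin of the fruit, was taken in October 2012 from 6 apple varieties in a Belgian research orchard. The skin was fully russeted and corky in St Edmund Pippin, in Reinette Parmentier and in Patte de Loup, and fully waxy and smooth in AG94, AF42 and Gala; the labels name no treatment. Each variety gave 1 library, so the spread within a phenotype is a spread between varieties (n = 3 per phenotype), and how many fruits went into a library is not given in the sources used here. Whatever else separates these sets of varieties cannot be told apart from skin type here, and in bulk tissue fewer cells of a type cannot be told apart from less RNA per cell.

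Waxy apple skin is covered by a continuous cuticle made by the living epidermis, whereas russeted skin has lost much of it and is sealed by cork, a tissue of suberised cells. Isopropylmalate synthase commits carbon to leucine in plastids. NmrA-like proteins carry the fold of a regulator of nitrogen metabolism in fungi, and the plant proteins resemble isoflavone reductases. In Arabidopsis RHA2B is an E3 ubiquitin ligase that promotes abscisic acid responses, SVB affects the size and branching of trichomes, and AT3G24420 belongs to the hydrolase family that includes the strigolactone and karrikin receptors.

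Mapped reads, recovered from the reads, length and RPKM of each gene, ranged from 9.44 M in Gala to 19.1 M in Reinette Parmentier. Levels are deposited RPKM, reads scaled by the coding length of the gene model and by mapped reads, and the intervals are exact 95% Poisson intervals of the reads behind them; they cover counting error only, since PCR reads carried no molecular identifiers. Of 10 listed cuticle genes, 8 fell in russeted exocarp (10 with TMM factors, a scaling that takes most listed genes as equal), and of 8 cork genes 8 rose (3 with TMM factors), by edgeR's quasi-likelihood test with Benjamini-Hochberg adjustment, against 9.31% falling and 19.2% rising of the 1246 tested genes. The cuticle genes, among them ABCG11, CER1, KCS10 and GPAT6, summed to 1407 to 2480 RPKM in the waxy and 107 to 379 RPKM in the russeted varieties, and the cork genes, among them CYP86B1, GPAT5 and MYB93, to 17.5 to 64.9 RPKM and 115 to 578 RPKM. Markers of vascular tissue were higher too: of 5 listed genes, among them SUS4, PP2-A9, PP2-A1 and PP2-A12, 3 rose (0 with TMM factors), and the 5 summed to 27.4 to 40.2 RPKM in waxy and 118 to 183 RPKM in russeted exocarp. The part of these tissues in the results below was not tested. Every listed gene has an absolute deposited log2 fold of at least 1, so by the deposited folds the assumption behind TMM factors is not met. No listed gene has a deposited false discovery rate above 0.200. Shares over all listed or tested genes are therefore shares among genes already selected on this contrast. Values with TMM factors therefore show only how far a result depends on the scaling.

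All 6 transcripts stood far higher on average in waxy than in russeted skin, though the hydrolase gene was low in waxy AF42 and SVB kept a sizeable level in russeted skin. Their waxy means ran from 111 RPKM for the hydrolase gene to 5688 RPKM for SVB, which ranked 4 of all 1261 listed genes by waxy mean, while RHA2B ranked 9 and IMS1 ranked 15. Their russeted means ran from 1.95 RPKM for the longer NmrA-like model to 282 RPKM for SVB. The median log2 fold change, russeted over waxy, was -5.54 for the 6 genes, -1.75 for the listed lower genes and 1.19 for all tested genes. Every waxy value lay above every russeted value in 6 of the 6 genes; this held for 24.3% of all listed genes, and since the contrast chose the 6, nothing is read from the count. Of the 6, 2 had a false discovery rate under 0.05 in the authors' deposited table, RHA2B and SVB, as had 35.9% of the listed genes in either direction and 10.8% as lower genes; this count too is no more than a description.

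**Figure D1:**
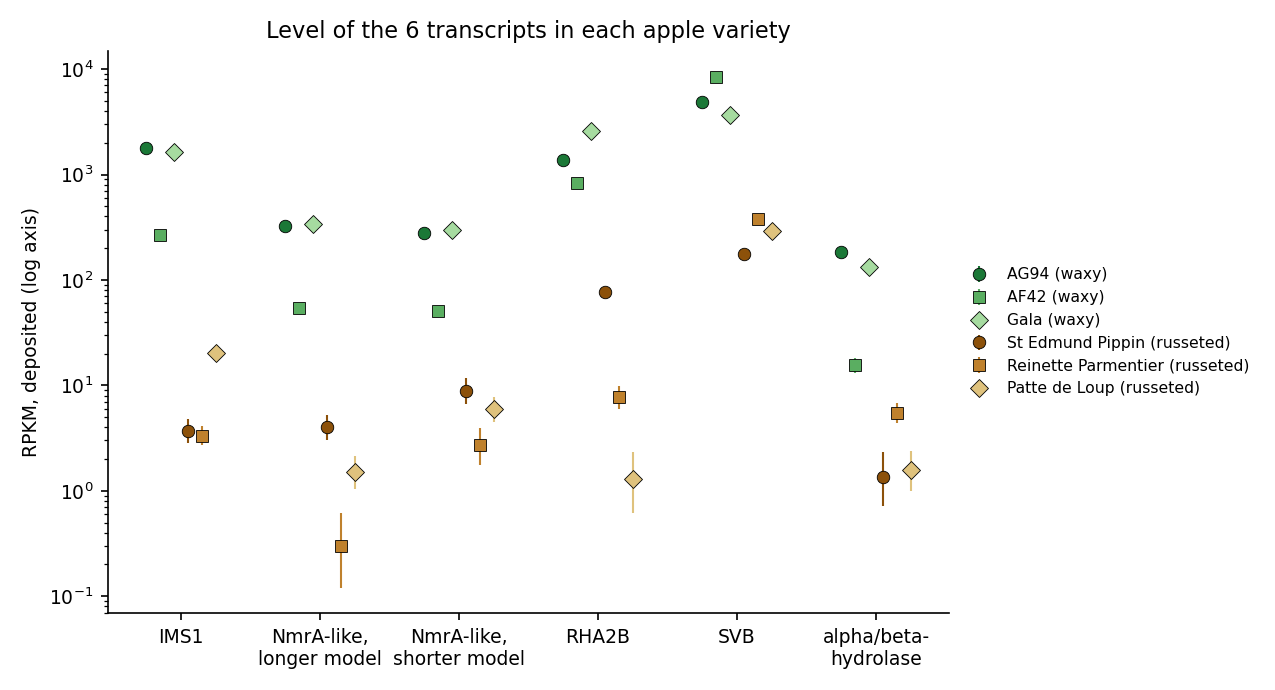
Deposited RPKM (log axis) of the 6 transcripts in each variety, with exact 95% Poisson intervals of the total gene reads as bars. In every gene the 3 green waxy points lie above the 3 brown russeted points, with the narrowest gap in the hydrolase gene, whose lowest waxy value was 2.80 times its highest russeted value.

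**Figure D2:**
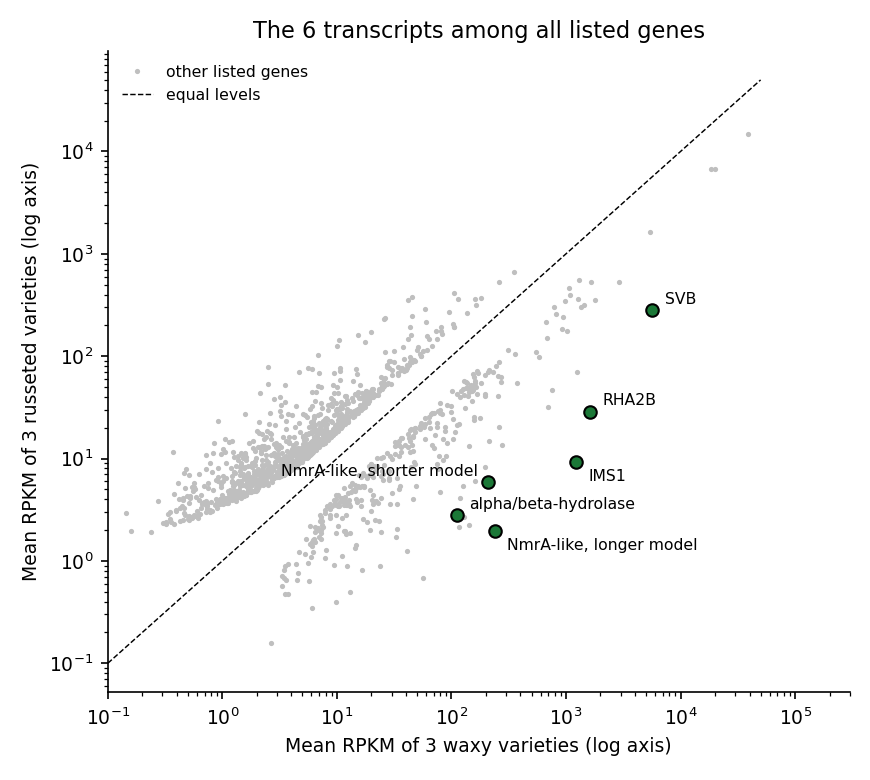
Mean RPKM of the 3 russeted varieties against that of the 3 waxy varieties for all listed genes (grey) and the 6 transcripts (green), both axes logarithmic. Genes near the line of equal levels are missing because every listed gene has an absolute deposited log2 fold of at least 1, and the 6 lie far below that line.

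IMS1 had the largest fold of any listed gene that was lower in russeted exocarp. Its level was 1796 RPKM in AG94, 269 RPKM in AF42 and 1627 RPKM in Gala, against 3.70 RPKM in St Edmund Pippin, 3.34 RPKM in Reinette Parmentier and 20.5 RPKM in Patte de Loup. AF42 stood well below the other waxy varieties and Patte de Loup above the other russeted ones, but the phenotypes did not overlap: AF42 was still 13.2 times Patte de Loup. The mean was 1231 ± 837 RPKM (SD, n = 3) in waxy and 9.17 ± 9.78 RPKM in russeted exocarp, a 134-fold ratio and a log2 fold change of -7.07 ± 1.11 (SE; -8.45 without Patte de Loup). The authors' deposited table gave a fold of -123.95 with a false discovery rate of 0.113.

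In the waxy varieties AG94 exceeded AF42 in IMS1 level 6.67-fold (95% counting interval 6.46 to 6.88) and Gala exceeded it 6.04-fold (5.84 to 6.24), while AG94 and Gala differed 1.10-fold (1.09 to 1.12). The level left in russeted skin was 0.301% of the waxy mean in St Edmund Pippin (62 reads), 0.271% in Reinette Parmentier (94 reads) and 1.66% in Patte de Loup (520 reads). St Edmund Pippin and Reinette Parmentier were not distinguishable at this depth (ratio 1.11, 0.792 to 1.55), whereas Patte de Loup exceeded them 5.53-fold (4.24 to 7.32) and 6.13-fold (4.92 to 7.72). Of the reads of IMS1, 64.2% were unique to it over all libraries, 43.5% in St Edmund Pippin and 67.3% in Patte de Loup. On unique reads alone the level left was 0.204% of the waxy mean in St Edmund Pippin and 0.247% in Reinette Parmentier, the reverse of their order on total reads (ratio 0.826, 0.501 to 1.33). IMS1 was the only gene of the branched-chain amino acid list in the table, so the other steps of leucine synthesis were not analysed here.

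The NmrA-like models are 1224 and 507 bases long and carry the same Arabidopsis match. Whether they are separate loci or parts of 1 locus is not given in the sources used here. Counts and medians over the 6 may thus weigh 1 locus more than once. The longer model had 323 RPKM in AG94, 53.8 RPKM in AF42 and 336 RPKM in Gala, and 4.04 RPKM in St Edmund Pippin, 0.30 RPKM in Reinette Parmentier and 1.52 RPKM in Patte de Loup. The shorter model had 281, 50.6 and 297 RPKM in AG94, AF42 and Gala, and 8.88, 2.69 and 5.97 RPKM in St Edmund Pippin, Reinette Parmentier and Patte de Loup. In each of these models AF42 was the lowest waxy and Reinette Parmentier the lowest russeted variety. The waxy means were 238 ± 159 RPKM (SD, n = 3) for the longer and 209 ± 138 RPKM for the shorter model, against 1.95 ± 1.91 RPKM and 5.85 ± 3.10 RPKM in russeted exocarp. The log2 fold changes were -6.95 ± 1.01 (SE; -8.03 without St Edmund Pippin) and -5.17 ± 0.75, and the authors' deposited table gave false discovery rates of 0.101 and 0.102.

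Gala and AG94 were not distinguishable in either NmrA-like model, with ratios of 1.04 (95% counting interval 0.998 to 1.08) and 1.06 (0.989 to 1.13), and Gala exceeded AF42 6.25-fold (5.76 to 6.79) and 5.87-fold (5.15 to 6.71). Only 7 reads of the longer model were found in Reinette Parmentier, which puts its level at 0.126% of the waxy mean (0.0507% to 0.260%). St Edmund Pippin kept 1.70% (56 reads) and Patte de Loup 0.639% (32 reads). The shorter model kept 4.24%, 1.28% and 2.85% of its waxy mean in St Edmund Pippin, Reinette Parmentier and Patte de Loup, on 51, 26 and 52 reads.

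Per length, the NmrA-like models stood close together in waxy skin and apart in russeted skin. The shorter model was at 0.868, 0.941 and 0.883 times the longer one in AG94, AF42 and Gala, and at 2.20, 8.97 and 3.93 times it in St Edmund Pippin, Reinette Parmentier and Patte de Loup. On unique reads alone these ratios were 0.725, 0.773 and 0.714, and 1.37, 6.44 and 3.19, so the order was the same in all 6 libraries. Unique reads were scaled by the full length too, which lowers the model with the smaller share of them, so these ratios are uncertain to that extent. Unique reads were 84.2% of the longer and 69.2% of the shorter model, and 49.0% of the shorter model in St Edmund Pippin; which other genes share the rest is not given in the sources used here.

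Another listed gene with the same Arabidopsis match, MDP0000371499, differed in the other direction without passing the test. It had 141, 145 and 29.1 RPKM in AG94, AF42 and Gala, and 399, 299 and 543 RPKM in St Edmund Pippin, Reinette Parmentier and Patte de Loup. Its russeted values all lay above its waxy values, and it was Gala, not AF42, that was lowest among the waxy varieties. The means were 105 ± 65.8 RPKM (SD, n = 3) in waxy and 414 ± 123 RPKM in russeted exocarp, with a log2 fold change of 1.98 ± 0.68 (SE, edgeR quasi-likelihood test, adjusted p = 0.112; with TMM factors 1.01). In waxy skin the lower pair together reached 104 to 633 RPKM, and in russeted skin 2.99 to 12.9 RPKM.

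RHA2B spread further among the russeted varieties than any other of the 6. Its level was 1376 RPKM in AG94, 829 RPKM in AF42 and 2606 RPKM in Gala, and 77.2 RPKM in St Edmund Pippin, 7.76 RPKM in Reinette Parmentier and 1.28 RPKM in Patte de Loup. The russeted varieties spanned 60.3-fold, and the highest, St Edmund Pippin, was still below AF42 by a factor of 10.7. The means were 1604 ± 910 RPKM (SD, n = 3) in waxy and 28.7 ± 42.1 RPKM in russeted exocarp (log2 fold change -5.81 ± 1.19, SE). St Edmund Pippin alone carried most of the russeted mean, and without it the log2 fold change was -8.46.

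The level of RHA2B left in russeted skin was 4.81% of the waxy mean in St Edmund Pippin (396 reads), 0.484% in Reinette Parmentier (67 reads) and 0.0798% in Patte de Loup (10 reads, 95% counting interval 0.0383% to 0.147%). Each step in this order exceeded counting error: 9.94-fold (7.66 to 13.1) from Reinette Parmentier to St Edmund Pippin and 6.04-fold (3.09 to 13.2) from Patte de Loup to Reinette Parmentier. Among the waxy varieties Gala exceeded AG94 1.89-fold (1.84 to 1.94) and AG94 exceeded AF42 1.66-fold (1.60 to 1.72). Since 96.7% of its reads were unique to it, these values hardly depend on how shared reads were placed. In the authors' deposited table its false discovery rate was 0.0303.

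SVB was the most abundant of the 6 and had the smallest fold. It had 4914 RPKM in AG94, 8464 RPKM in AF42 and 3687 RPKM in Gala, and 178 RPKM in St Edmund Pippin, 379 RPKM in Reinette Parmentier and 289 RPKM in Patte de Loup. Here AF42 was the highest waxy variety, not the lowest, and the values within each phenotype lay closer together than in the other 5 genes, with the highest over the lowest at 2.30 in waxy and 2.13 in russeted exocarp. The means were 5688 ± 2481 RPKM (SD, n = 3) in waxy and 282 ± 101 RPKM in russeted exocarp (log2 fold change -4.33 ± 0.81, SE), and the authors' deposited false discovery rate was 0.00592, the lowest of the 6.

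Only 35.4% of the reads of SVB were unique to it, so its level is uncertain to that extent. The level left was 3.13% of the waxy mean in St Edmund Pippin, 6.66% in Reinette Parmentier and 5.07% in Patte de Loup, and on unique reads 3.39%, 6.54% and 6.62%. Reinette Parmentier thus exceeded Patte de Loup 1.31-fold (95% counting interval 1.25 to 1.38) on total reads and did not on unique reads (0.988, 0.911 to 1.07).

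The alpha/beta-hydrolase gene was the least abundant of the 6 in waxy skin and the most uneven there. Its level was 186 RPKM in AG94, 15.4 RPKM in AF42 and 132 RPKM in Gala, and 1.36 RPKM in St Edmund Pippin, 5.52 RPKM in Reinette Parmentier and 1.58 RPKM in Patte de Loup. AG94 exceeded AF42 12.0-fold (95% counting interval 10.1 to 14.4) and Gala 1.41-fold (1.31 to 1.52). The means were 111 ± 86.9 RPKM (SD, n = 3) in waxy and 2.82 ± 2.34 RPKM in russeted exocarp (log2 fold change -5.28 ± 0.87, SE; -6.22 without Reinette Parmentier and -4.68 without AG94), with a false discovery rate of 0.195 in the authors' deposited table. It kept 1.23% of the waxy mean in St Edmund Pippin (13 reads), 4.98% in Reinette Parmentier (89 reads) and 1.43% in Patte de Loup (23 reads). Without AG94, the highest waxy variety, these levels were 1.85%, 7.51% and 2.15%. St Edmund Pippin and Patte de Loup were not distinguishable at this depth (ratio 1.17, 0.566 to 2.51). Unique reads were 62.7% of its total.

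The table held a second gene matched to AT3G24420, MDP0000298959, with 100% unique reads, and it was lower in russeted exocarp as well. It had 92.2, 236 and 94.6 RPKM in AG94, AF42 and Gala, and 2.85, 12.7 and 24.6 RPKM in St Edmund Pippin, Reinette Parmentier and Patte de Loup. AF42 was thus the highest waxy variety for this copy and the lowest for the other. Its means were 141 ± 82.6 RPKM (SD, n = 3) in waxy and 13.4 ± 10.9 RPKM in russeted exocarp (log2 fold change -3.40 ± 0.73, SE; edgeR quasi-likelihood test, adjusted p = 0.0132, and 0.0692 without Reinette Parmentier). Summed over both copies on total reads the level was 278 RPKM in AG94, 252 RPKM in AF42 and 226 RPKM in Gala, a 1.23-fold range, of which MDP0000430391 gave 66.8%, 6.13% and 58.2%. MDP0000430391 was at 2.01, 0.0653 and 1.39 times the other copy in AG94, AF42 and Gala. On unique reads alone it was at 1.25, 0.0467 and 0.891 times that copy, so its larger part in Gala depends on shared reads. Scaling unique reads by the full length lowers MDP0000430391, so the sums and shares are uncertain to that extent. In russeted skin the sum was 4.21 RPKM in St Edmund Pippin, 18.2 RPKM in Reinette Parmentier and 26.2 RPKM in Patte de Loup. This pair was summed after its values were seen.

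AF42 set the spread among the waxy varieties in 4 of the 6 genes. In AF42 the level was 15.7% of the mean of AG94 and Gala for IMS1, 16.3% for the longer and 17.5% for the shorter NmrA-like model, and 9.74% for the hydrolase gene. Across the 328 listed lower genes the median of this share was 99.9%, and 6 of them (1.83%) were under 20%: these 4 and 2 others, a thioesterase gene (MDP0000164161, 16.5%) and an alcohol dehydrogenase gene of the GroES-like family (MDP0000874667, 19.2%). The bound of 20% and these names were chosen after the values were seen. AF42 was the lowest waxy variety in 5 of the 6 genes, against 122 of the 328 lower genes and 358 of all 1261. The median highest-over-lowest ratio among the waxy varieties was 6.06 for the 6, 1.98 for the lower genes and 2.18 for all listed genes. Mapped reads were 16.8 M in AG94, 10.5 M in AF42 and 9.44 M in Gala. AF42 was the highest waxy variety for 8 of the 10 cuticle genes and 4 of the 5 vascular genes, against 127 of the 328 lower genes and 540 of all 1261. Whether depth or tissue make-up bears on the low AF42 values was not tested. The cuticle genes summed to 2480 RPKM in AG94, 2151 RPKM in AF42 and 1407 RPKM in Gala, and without CER3 (MDP0000165547), left out after its values were seen, to 977, 1405 and 592 RPKM.

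**Figure D3:**
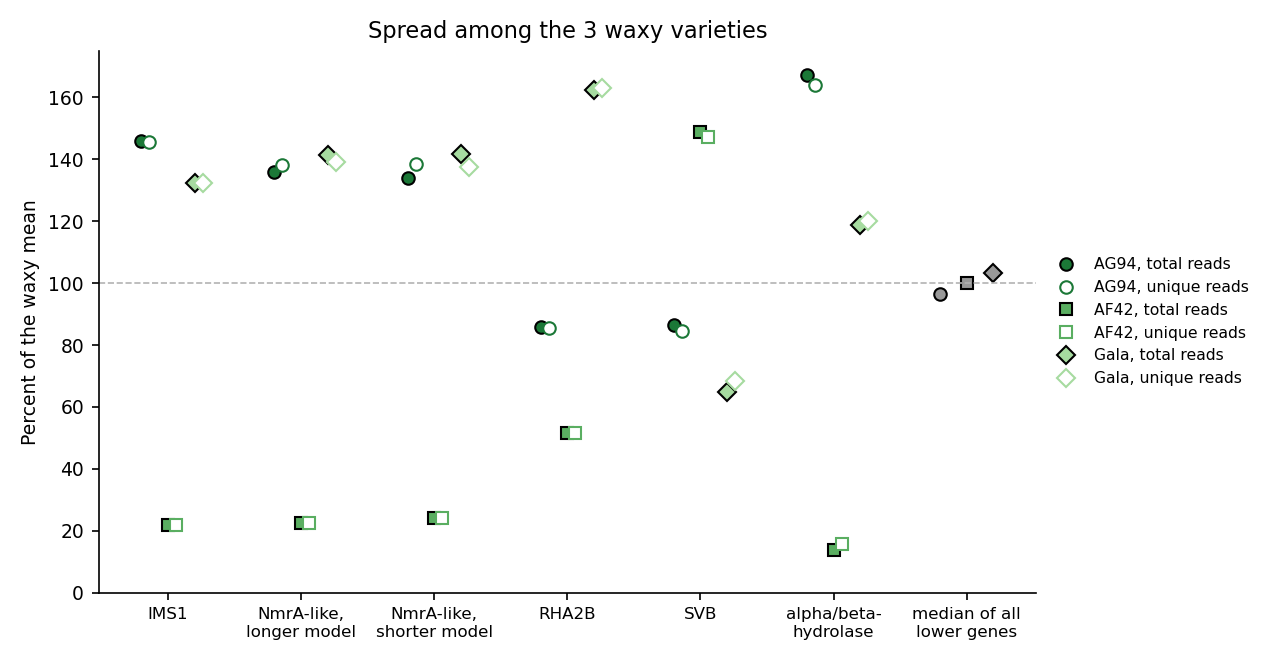
Level of each transcript in AG94, AF42 and Gala as a percent of its own waxy mean, from total (filled) and unique (open) gene reads, with the median over the 328 lower genes in grey at the right. AF42 lies far below AG94 and Gala for IMS1, the NmrA-like models and the hydrolase gene and above them for SVB, whereas the lower genes have medians of 96.5% to 103% in the 3 varieties.

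No russeted variety kept the most of all 6 transcripts. In the counts and medians that follow, the NmrA-like models, possibly 1 locus, are counted separately. On total reads St Edmund Pippin was highest for 3 (the NmrA-like models and RHA2B), Reinette Parmentier for 2 (SVB and the hydrolase gene) and Patte de Loup for 1 (IMS1). For the shorter NmrA-like model St Edmund Pippin was not distinguishable from Patte de Loup (ratio 1.49, 0.991 to 2.23). For SVB Reinette Parmentier was not distinguishable from Patte de Loup on unique reads (0.988, 0.911 to 1.07). Reinette Parmentier was the lowest for 3 of the 6, namely IMS1, where it was not distinguishable from St Edmund Pippin and lay above it on unique reads, and the NmrA-like models, whereas it was the lowest russeted variety in 42 and the highest in 159 of the 328 lower genes. The median level left over the 6 was 2.41% of the waxy mean in St Edmund Pippin, 0.884% in Reinette Parmentier and 1.54% in Patte de Loup, and over the lower genes 19.5%, 31.9% and 25.5%. With TMM factors the medians over the 6 were 1.18%, 0.450% and 0.696%. The 6 were chosen for low russeted values, so only the order of the varieties, not the depth of the fall, was free to differ, and the order rests on 1 library per variety. The median highest-over-lowest ratio among the russeted varieties was 5.09 for the 6 and 2.84 for the lower genes. The 6 genes give 18 pairs of varieties within each phenotype, and the difference exceeded counting error in 16 of them in waxy and 15 in russeted exocarp. With many reads even a small ratio exceeds counting error, such as 1.10 for IMS1 in AG94 over Gala. The same count was not made for other listed genes, so nothing is read from it.

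**Figure D4:**
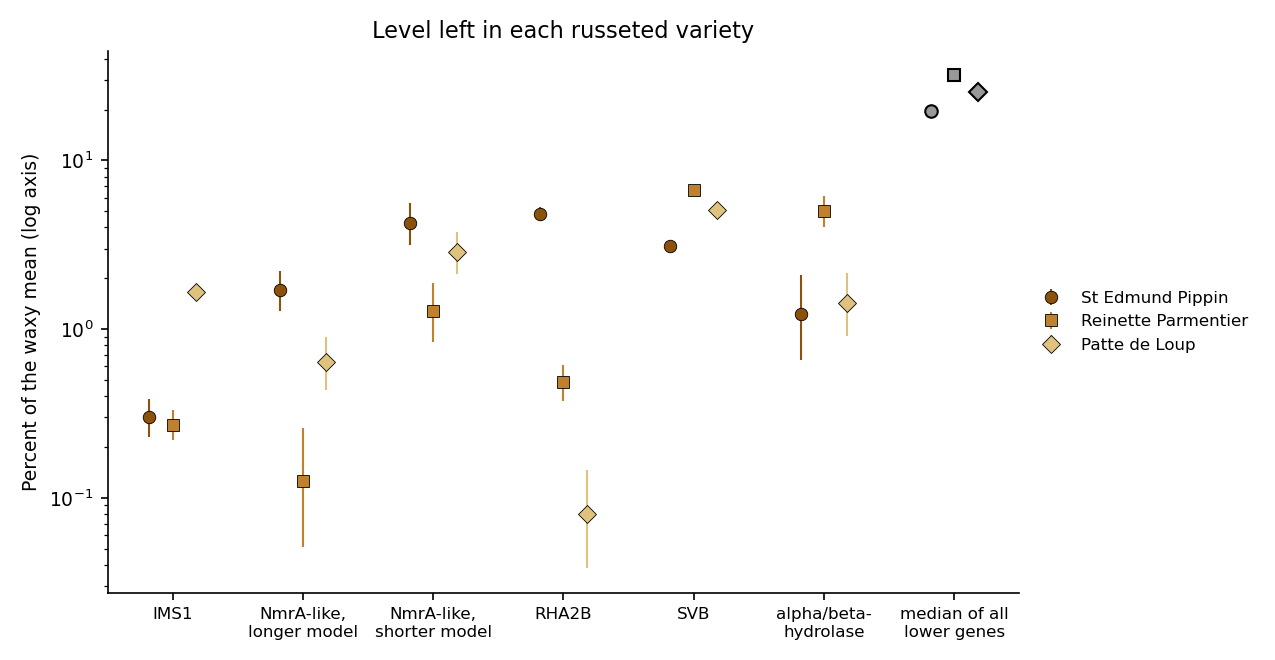
Level left in each russeted variety as a percent of the gene's waxy mean (log axis), with exact 95% Poisson intervals of the reads as bars and, in grey at the right, the medians over the 328 lower genes. The variety with the highest value differs from gene to gene: Patte de Loup for IMS1, St Edmund Pippin for the NmrA-like models and RHA2B, and Reinette Parmentier for SVB and the hydrolase gene. For the shorter NmrA-like model the lead over Patte de Loup lay within counting error, and for SVB it was absent on unique reads.

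Listed genes related to the 6 went in both directions, as did the tested genes as a whole. The related genes are 29 outside the 6, namely members of the same families and the abscisic acid signalling gene PP2CA. Of these, 7 rose and 4 fell in russeted exocarp (edgeR quasi-likelihood test, Benjamini-Hochberg adjusted p under 0.05), against 19.2% rising and 9.31% falling of all 1246 tested genes (239 and 116). With so few genes these shares lie near each other, and no result about the families is read from them. All of them are listed with an absolute deposited log2 fold of at least 1 and a deposited false discovery rate of at most 0.200. Both come from the same 6 libraries, so the counts are not independent evidence. Scaling the libraries by TMM factors from the listed genes moved the median log2 fold change of all tested genes from 1.19 to 0.20, and then 0 of the 29 rose and 10 fell, against 3.53% rising and 23.8% falling of all tested genes.

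Among 18 other RING finger genes, most of which encode E3 ubiquitin ligases, 5 rose, 2 fell and 11 did not pass the test, with 0 and 5 under TMM factors; with so few genes these shares lie near those of all tested genes under either scaling, and no result about the family is read from them. RHA2A (MDP0000912146), which acts with RHA2B in abscisic acid responses of Arabidopsis, was among those that rose, in contrast to RHA2B itself. It had 14.1, 4.28 and 11.6 RPKM in AG94, AF42 and Gala, and 34.9, 66.8 and 48.8 RPKM in St Edmund Pippin, Reinette Parmentier and Patte de Loup. The phenotypes did not overlap, with means of 9.97 ± 5.09 RPKM (SD, n = 3) and 50.2 ± 16.0 RPKM (log2 fold change 2.32 ± 0.55, SE; edgeR adjusted p = 0.0196, and up to 0.0902 without Reinette Parmentier or without AF42; with TMM factors 1.30, adjusted p = 0.434). In waxy skin RHA2B stood far above RHA2A, at 1604 against 9.97 RPKM, and in russeted skin below it, at 28.7 against 50.2 RPKM. In St Edmund Pippin, however, RHA2B (77.2 RPKM) remained above RHA2A (34.9 RPKM).

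The C3HC4-type gene MDP0000467552 rose from 0.320 to 2.38 RPKM (log2 fold change 2.85 ± 0.60, SE; edgeR adjusted p = 0.0122, between 0.0173 and 0.0394 without any 1 variety, and 0.0839 with TMM factors). VIM1 (MDP0000186701), which reads DNA methylation in Arabidopsis, rose from 0.670 to 3.63 RPKM (edgeR adjusted p = 0.0224, 0.136 at most when Patte de Loup or Gala was left out, and 0.285 with TMM factors). The RING/U-box gene MDP0000743449 fell from 44.0 ± 21.0 to 8.24 ± 0.47 RPKM (SD, n = 3; edgeR adjusted p = 0.0130, and 0.0647 without Reinette Parmentier). PP2CA (MDP0000270237), a phosphatase that represses abscisic acid signalling and the only listed gene of that signalling list, averaged 61.7 ± 23.2 RPKM in waxy and 116 ± 41.8 RPKM in russeted exocarp and did not pass the test (log2 fold change 0.91 ± 0.54, edgeR adjusted p = 0.60; with TMM factors -0.14).

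Of the 2 other DUF538 genes, neither passed the test. MDP0000278260, matched to AT1G09310, was also abundant in waxy skin, at a lower level per length than SVB on total reads. SVB was at 1.68, 2.47 and 1.58 times its level in AG94, AF42 and Gala on total reads, and at 0.604, 0.915 and 0.606 times it on unique reads. Unique reads were 95.2% of the reads of MDP0000278260 and 35.4% of those of SVB. Since unique reads were scaled by the full gene length, the ratios on unique reads do not rank these genes. MDP0000278260 had 2931, 3421 and 2329 RPKM in AG94, AF42 and Gala, and 119, 728 and 742 RPKM in St Edmund Pippin, Reinette Parmentier and Patte de Loup. Its phenotypes did not overlap and St Edmund Pippin was the lowest library, as for SVB (log2 fold change -2.45 ± 0.77, edgeR adjusted p = 0.0772, and 0.0297 with TMM factors). MDP0000315579, matched to AT1G02816, averaged 10.5 ± 8.5 RPKM in waxy and 24.9 ± 4.83 RPKM in russeted exocarp (SD, n = 3; log2 fold change 1.25 ± 0.60, edgeR adjusted p = 0.339; with TMM factors 0.15).

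Of 7 other alpha/beta-hydrolase genes 2 rose and 2 fell, with 0 and 4 under TMM factors, against 19.2% and 9.31% of all tested genes, and 3.53% and 23.8% under TMM factors. Besides the second AT3G24420 copy, MDP0000310704 (matched to AT4G24140) fell from 90.6 ± 13.4 to 14.3 ± 9.37 RPKM (SD, n = 3; edgeR adjusted p = 0.0167, and 0.0754 without Reinette Parmentier). MDP0000202596 rose from 0.980 to 5.32 RPKM and MDP0000235111 from 1.21 to 6.82 RPKM (edgeR adjusted p = 0.0164 for each, 0.0631 at most without Reinette Parmentier or without AG94, and 0.201 and 0.190 with TMM factors).

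**Figure D5:**
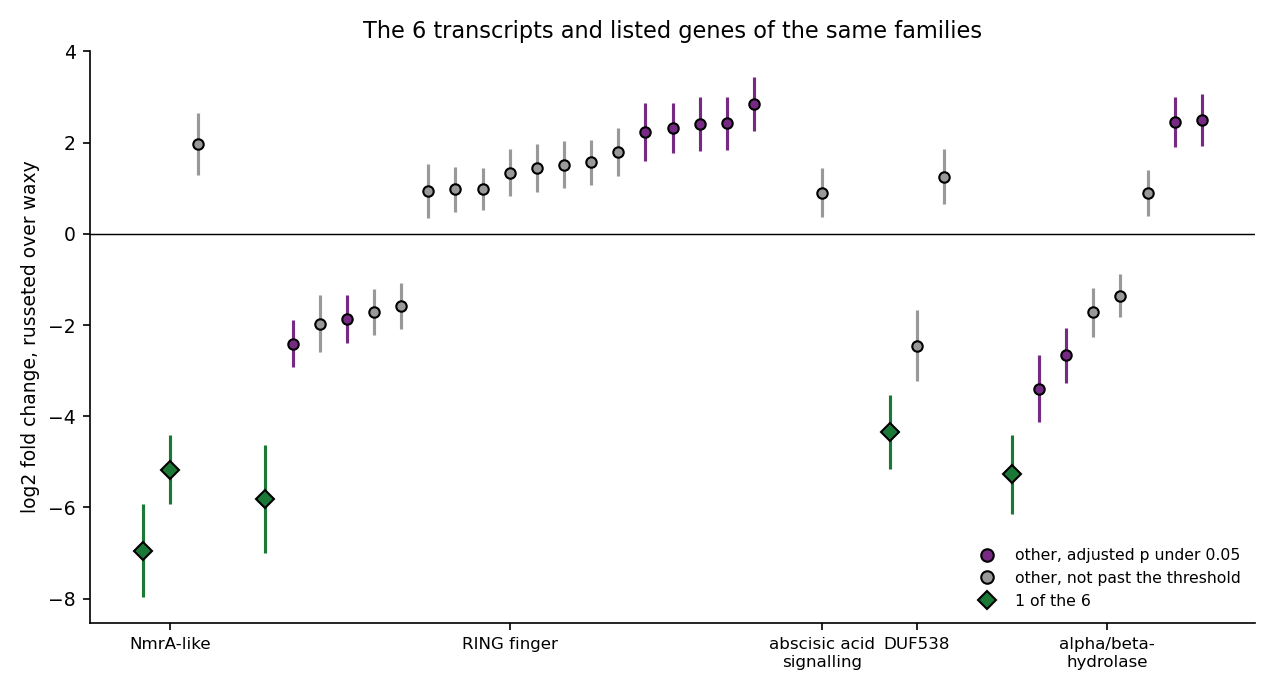
Log2 fold change, russeted over waxy, with its SE, of the 6 transcripts except IMS1 (green diamonds). Circles show the listed genes of the same families and the abscisic acid signalling gene PP2CA (purple where the edgeR adjusted p is under 0.05). Each transcript shown lies below every listed gene of its family outside the 6, and family members lie on both sides of 0 in every family with more than 1 other gene.

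Which listed genes varied most like each of the 6 was read from deviations of log2(RPKM + 1) from the mean of the gene's own phenotype, over the 6 varieties and 891 genes with enough unique reads. With so few varieties high correlations arise easily, so these are descriptions. The longer and shorter NmrA-like models were most like each other (Pearson's r = 0.99), and whether they share reads is not given in the sources used here. Among the 6, SVB varied in the opposite sense to them, with r = -0.95 for the longer and -0.91 for the shorter model. The NmrA-like models were followed, for the longer model, by FIP2 (MDP0000322339, r = 0.97) and the homeobox gene HAT14 (MDP0000273608, r = 0.96), and for the shorter one by HAT14 (r = 0.98) and MDP0000682739 (r = 0.97). Unlike the NmrA-like models, FIP2, HAT14 and MDP0000682739 were higher in russeted exocarp, by 1.6, 2.58 and 1.34 in deposited log2 fold.

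IMS1 varied most like an ankyrin repeat gene (MDP0000211999, r = 0.99), MDP0000150022 (r = 0.95) and a glyoxal oxidase-related gene (MDP0000449901, r = 0.93). These 3 were higher in russeted exocarp, by 1.06 to 2.04 on the log2 scale in the authors' deposited table. RHA2B varied most like MDP0000460898 and MDP0000139977 (r = 0.99 each) and WRKY65 (MDP0000133918, r = 0.97). By the deposited log2 fold MDP0000460898 (1.72) and WRKY65 (2.38) were higher in russeted exocarp and MDP0000139977 (-1.58) was lower. SVB varied most like a P-loop hydrolase gene (MDP0000534116), a peptidase M1 gene (MDP0000295227) and the small RNA methyltransferase gene HEN1 (MDP0000154407), each with r = 0.97. All of these were higher in russeted exocarp, by 1.03 to 1.42 in deposited log2 fold. The hydrolase gene varied most like the amino acid transporter gene CAT1 (MDP0000157113) and a phosphoglycerate mutase-like gene (MDP0000211494), with r = 0.98 each, and RHA2A (r = 0.97). CAT1 and MDP0000211494 were lower in russeted exocarp and RHA2A was higher. CAT1 had 242, 99.0 and 201 RPKM in AG94, AF42 and Gala, and 43.0, 75.6 and 47.0 RPKM in St Edmund Pippin, Reinette Parmentier and Patte de Loup. Within each phenotype the varieties stood in the same order as for the hydrolase gene. For that gene, however, St Edmund Pippin and Patte de Loup were not distinguishable at this depth.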

How the data were processed

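Per the labels' protocols, poly(A) libraries that do not keep the strand were amplified over 15 cycles of PCR from skin RNA. The authors deposited 1 table, and per the file headers CLC Genomics Workbench 6.5 was used to make it; the mapping settings and the build are not stated in those headers. The deposited counts are total gene reads, which include reads shared with other genes, and unique gene reads. The deposited RPKM values scale total gene reads by gene length and mapped reads. Of their comparison the authors deposited the fold (a score, below 0 for genes lower in russeted skin), its log2, a p-value and a false discovery rate.

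The 1261 genes all have an absolute deposited log2 fold of at least 1 and a deposited false discovery rate of at most 0.200. Mapped reads per library were recovered from genes with at least 200 reads. Counts were fitted with edgeR 4.0.16 (quasi-likelihood, two-sided, R 4.3.3) with mapped reads as library sizes; its filter left 1246 genes, and p was adjusted by Benjamini-Hochberg with 6449 as the number of tests, the size recovered from the deposited p-values and false discovery rates, at a threshold of 0.05. The SE is the log2 fold change over the square root of F. Alternatives were TMM and DESeq2 1.42.0 size factors, the DESeq2 test, no filter, unique reads, RPKM means, each variety left out, the label number as a block, and for levels a pseudocount of 1. Since each library is another variety, p measures the spread between varieties.

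The 6 genes and the 10 gene lists were chosen with earlier results of these data known. Genes named beside the 6 followed a rule: the 3 with the highest correlation of deviations (at least 200 reads and 50% unique reads), up to 4 of each list with the smallest p, and every gene with the same Arabidopsis match. List words were matched at the start of a word. None of the identifiers was found in RefSeq's apple gene table (0 of 1261), and no sequences or positions are given.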

Additional observations from a re-analysis of the deposited data

How the results depend on the processing

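The 6 log2 fold changes stayed below 0 under all 13 alternatives, and since this contrast chose the 6, no p is given for them, although they were in the fit and are among the genes counted as falling. With TMM factors all 6 went lower. IMS1 went from -7.07 to -8.19, and the longer and shorter NmrA-like models from -6.95 to -8.05 and from -5.17 to -6.26. RHA2B went from -5.81 to -6.90, the hydrolase gene from -5.28 to -6.29 and SVB from -4.33 to -5.30 (-5.31 with DESeq2 size factors). Only for SVB did this exceed the spread between varieties, which was the smallest of the 6. Leaving out 1 variety gave -8.45 to -6.67 for IMS1, -8.03 to -6.42 and -5.63 to -4.82 for the longer and shorter NmrA-like models, -8.46 to -5.24 for RHA2B, -4.61 to -3.93 for SVB, -6.22 to -4.68 for the hydrolase gene and -6.14 to -5.20 for their median. With TMM factors, added after seeing the data, the median level left in russeted skin was 1.18% in St Edmund Pippin, 0.450% in Reinette Parmentier and 0.696% in Patte de Loup; for the hydrolase gene it was 0.58%, 2.56% and 0.644%. Without TMM factors and with 1 waxy variety left out, the median over the 6 ranged from 2.15% to 2.5% in St Edmund Pippin. That median ranged from 0.661% to 1.16% in Reinette Parmentier and from 1.10% to 2.15% in Patte de Loup.

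Of all tested genes 239 rose and 116 fell (44 and 296 with TMM factors, 43 and 296 with DESeq2 size factors, 547 and 266 with the DESeq2 test). Without 1 variety 134 to 194 rose and 67 to 105 fell: 134 and 71 without Patte de Loup, 135 and 73 without Reinette Parmentier, 153 and 67 without St Edmund Pippin, while 159 rose without Gala. Of the 29 related genes 0 rose and 10 fell with either set of factors, and 13 and 10 with the DESeq2 test. Without 1 variety 3 to 6 of them rose and 1 to 4 fell (3 and 1 without Reinette Parmentier, and 4 rose without Gala). Factors computed on listed genes assume that most of them do not differ. By the deposited folds that is not met, since every listed gene has an absolute log2 fold of at least 1. The numbers in the labels did not pair the libraries: deviations of same-numbered libraries correlated at -0.09, -0.02 and -0.09. With the number as a replicate block 209 genes rose and 110 fell, with 6 and 4 among the 29 related genes. Depth limits values that rest on few reads, such as the 7 of the longer NmrA-like model in Reinette Parmentier and the 10 of RHA2B in Patte de Loup.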
